A study of Homo sapiens with 4 samples.

Results

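Metallothioneins are small, cysteine-rich proteins that bind zinc and copper, and 2 families of membrane carriers move zinc around them. The SLC30A proteins (ZnT) carry zinc out of the cytosol, into organelles or out of the cell, and the SLC39A proteins (ZIP) carry it into the cytosol. MTF1, the metal-responsive transcription factor, senses free zinc and induces metallothionein genes and the exporter gene SLC30A1 through metal response elements in their promoters. Normal prostate secretory epithelium is known for its high zinc content, with SLC39A1 among its uptake carriers, and MT3 is the metallothionein first described in brain. The genes described here are the rows of the deposited table named MT2A, MT3, MTF1 or MT1 plus a letter, or beginning with SLC30A or SLC39A. There were 28 such rows among 16376: 5 metallothioneins, MTF1, 8 SLC30A genes and 14 SLC39A genes. The symbols MT1A, MT1B, MT1G, MT1H, MT1M, MT4, SLC30A2 and SLC30A8 were not analysed here.

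Polyadenylated RNA of LASCPC-01 cells was sequenced after treatment with ketotifen (2 libraries, A and B) or PBS (2 libraries, A and B), all labelled day 3. The LASCPC-01 line models human neuroendocrine prostate cancer and derives from prostate epithelium transformed with N-Myc and activated AKT1; the labels give its genotype as WT in both groups. Ketotifen, an antihistamine that blocks the H1 receptor and also stabilises mast cells, is named in the series title as a candidate drug for this cancer. PBS is the buffer control. The dose is not given in the sources used here. Levels are FPKM, read fragments divided by the gene's length and by the library's total, so levels of different genes can be set side by side.

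The totals that the authors scaled by were recovered from the steps of the FPKM values and ran from 32873603 to 36703851 reads per library. Among the neuroendocrine markers, UCHL1 (434 to 490.2 FPKM) and INSM1 (19.7 to 22.9 FPKM) were expressed. SYP lay between 0.379 and 0.594 FPKM, CHGA did not exceed 0.0886 FPKM and FOXA2 did not exceed 0.0594 FPKM. Limma called none of the neuroendocrine markers, and voom called 2 lower with ketotifen, where it called 7.53% of all tested genes in either direction. NCAM1 had 44.2 ± 0.355 FPKM with ketotifen and 51.6 ± 0.620 FPKM with PBS (SD, n = 2 each, voom adjusted p = 0.00803). ENO2 had 1.83 ± 0.329 FPKM with ketotifen and 2.93 ± 0.240 FPKM with PBS (voom adjusted p = 0.0449). GFAP, an astrocyte marker, was listed at 0 in all 4 libraries, but AQP4, also an astrocyte gene, had 1.06 and 0.867 FPKM with ketotifen and 1.10 and 1.30 FPKM with PBS (167 to 258 reads per library). The summed level of 4 fibroblast markers, most of it COL1A1, was 2.14 to 2.54 FPKM with ketotifen and 2.85 to 3.07 FPKM with PBS. COL1A1 itself was not called (limma adjusted p = 0.282, voom adjusted p = 0.197). The sum of 3 immune markers, nearly all of it CD68, was 2.94 to 3.16 FPKM with ketotifen and 2.77 to 3.99 FPKM with PBS. The part of such cells in the results was not tested. In a culture measured in bulk, fewer cells of a type and less RNA per cell cannot be told apart.

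MT3 was the most abundant of the 28 genes and had the largest log2(FPKM + 1) difference between the groups among the 24 tested. It had 504 and 466 FPKM in the ketotifen libraries, against 388 and 256 FPKM in the PBS libraries. Both ketotifen libraries lay above both PBS libraries, and the PBS libraries stood far apart from each other. The means were 485 ± 26.6 FPKM with ketotifen and 322 ± 92.7 FPKM with PBS (SD, n = 2 each). By its mean level MT3 ranked 104 among the 10586 genes tested, those averaging 1 FPKM or more over the 4 libraries. Its log2(FPKM + 1) difference was 0.62 ± 0.16 (SE), with a 95% interval of 0.25 to 0.99, or 1.54-fold on that scale. By size it ranked 9 among the positive differences of all tested genes. It did not pass limma's test (Benjamini-Hochberg adjusted p = 0.121). With limma's voom on the recovered reads (7506 and 6390 with ketotifen, 5172 and 3619 with PBS) the difference was 0.62 ± 0.10 and passed (voom adjusted p = 0.0017). Voom called 3.69% of all tested genes higher. On the voom scale, without the offset of 1 FPKM, the low MT1F had the larger difference, 0.71 ± 0.43 (SE), with a wider error.

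The size of the MT3 difference depended on the PBS libraries. PBS library B was lower than PBS library A by a log2 difference of -0.59 (B minus A), about the size of the difference between the groups, and this gap ranked 41 among the 10586 genes. Between the ketotifen libraries the difference was -0.11 (B minus A). Without ketotifen library A the difference between the groups was 0.56, and without ketotifen library B it was 0.67. Without PBS library B it was 0.32, and without PBS library A it was 0.92. In these fits the lone PBS library is assumed to vary like the ketotifen libraries, and they called 3.98% and 18.3% of all tested genes. Over all tested genes the median absolute difference between the PBS libraries was 0.082 and that between the groups was 0.089. The first compares single libraries and the second means of 2 libraries, which vary less, so the values are not on an equal footing.

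**Figure D1:**
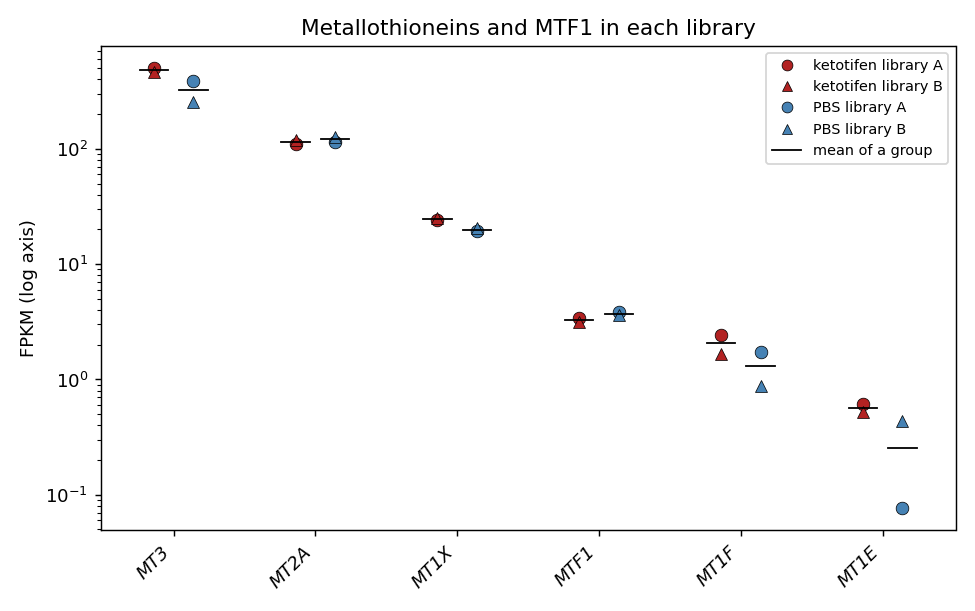
FPKM (log axis) of the 5 metallothioneins and MTF1 in each library; points are libraries, with ketotifen left of PBS, and bars are group means (n = 2 each). MT3 at 466 and 504 FPKM with ketotifen stands above 256 and 388 FPKM with PBS, while the groups overlap for MT2A.

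MT2A, the main metallothionein of most human tissues, was the second most abundant metallothionein and had a slightly lower mean with ketotifen. It had 109 and 120.1 FPKM in the ketotifen libraries, against 116 and 126 FPKM in the PBS libraries. The groups overlapped. Its means were 115 ± 7.51 FPKM with ketotifen and 121 ± 7.43 FPKM with PBS (SD, n = 2 each), a log2 difference of -0.08 ± 0.07 (SE) with a 95% interval of -0.23 to 0.08 (limma adjusted p = 0.535). A change of the size seen for MT3 lies outside that interval.

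MT1X, an MT1 isoform gene that is broadly inducible by metals, had 24.0 and 25.2 FPKM in the ketotifen libraries, against 19.5 and 20.4 FPKM in the PBS libraries. Here the libraries of each group lay close together and the groups did not overlap. The means were 24.6 ± 0.854 FPKM with ketotifen and 20.0 ± 0.663 FPKM with PBS (SD, n = 2 each). The log2 difference of 0.29 ± 0.06 (SE), 1.22-fold on the log2(FPKM + 1) scale, had a 95% interval of 0.15 to 0.42. It missed the threshold (limma adjusted p = 0.1003; voom adjusted p = 0.243, from 356 and 344 reads with ketotifen and 259 and 287 with PBS). With 1 library left out, the MT1X difference was 0.32 without ketotifen library A and 0.25 without ketotifen library B. It was 0.26 when PBS library A was dropped, and 0.32 when PBS library B was dropped instead. In each of these fits 1 group had 1 library and so no spread of its own, and only sizes are given here.

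The remaining MT1 rows were low. MT1F had 2.44 and 1.67 FPKM in the ketotifen libraries, against 1.72 and 0.880 FPKM in the PBS libraries. These values rest on 38 and 24 reads with ketotifen and 24 and 13 reads with PBS, and the groups overlapped. Its log2 difference was 0.42 ± 0.18 (SE, limma adjusted p = 0.243; voom adjusted p = 0.329), and it ran from 0.16 without PBS library B (limma adjusted p = 0.610) to 0.69 without PBS library A (adjusted p = 0.000928), with 0.24 without ketotifen library A (adjusted p = 0.670). MT1E had 9 and 7 reads with ketotifen and 1 and 6 reads with PBS and was below the filter. In a fit with no filter its log2 difference was 0.34 ± 0.15 (SE, limma adjusted p = 0.408).

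Within each library, MT3 and MT1X can be set against MT2A, which has almost the same length. MT3 was 4.60 and 3.88 times MT2A in the ketotifen libraries, against 3.34 and 2.03 times in the PBS libraries. MT1X was 0.219 and 0.2100 times MT2A in the ketotifen libraries, against 0.168 and 0.162 times in the PBS libraries. Both ratios were higher in each ketotifen library than in either PBS library. MT3 was 21.0 and 18.5 times MT1X in the ketotifen libraries, against 19.9 and 12.5 times in the PBS libraries, so that this ratio overlapped between the groups. With 2 against 2 libraries an exact permutation test cannot go below p = 0.333, and no other test of these ratios was run. Summed over the 5 rows, metallothioneins came to 640.2 and 614 FPKM with ketotifen and to 525 and 405 FPKM with PBS. MT3 made up 78.7% and 76.0% of that sum in the ketotifen libraries, against 73.9% and 63.4% in the PBS libraries.

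The metallothionein genes form a cluster on chromosome 16. In GRCh38 (RefSeq GRCh38.p14) it runs from MT3 (chr16:56589528-56591085) through MT2A (chr16:56608584-56609497), MT1E (chr16:56625781-56627112) and MT1F (chr16:56657959-56659303) to MT1X (chr16:56682470-56684196). None of the genes tested around the cluster passed the threshold. Of 8 neighbours, 6 were tested. None had an unadjusted p under 0.05 in limma, against 20.4% of all tested genes, and voom called none, against 7.53% of all. Their median log2 difference was -0.03, against -0.02 over all tested genes. The smallest p among them was that of NUDT21, an mRNA 3′ end processing factor, with 33.4 ± 0.390 FPKM with ketotifen and 35.9 ± 0.824 FPKM with PBS (SD, n = 2 each). The others with the smallest p were BBS2 (log2 difference -0.11) and NUP93 (0.09).

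The metallothioneins are paralogs with similar coding sequences, and how the authors' counting treated reads that fit several genes is not given in the sources used here. In GENCODE 29 transcripts, none of the 5 shared a stretch of 150 bases with another of the 21 metallothionein gene names compared, pseudogenes included. At 50 bases, MT3 shared none, MT1F shared 1.22% of its stretches, MT2A 3.02%, MT1X 3.64% and MT1E 7.10%. These shares are over the stretches of all transcripts of a gene, pooled. The longest transcripts ran from 729 bases (MT1E) to 1727 bases (MT1X), while the authors divided by 398 to 425 bases. Shares within the bases that the authors counted were not computed and may be higher.

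All 5 metallothionein rows are short genes. The lengths the authors divided by, recovered with the reads, were 398 to 425 bases. Over the 472 tested genes under 1000 bases the median log2 difference was 0.13 with ketotifen against PBS, and -0.12 for PBS library B minus A. Over the 10114 longer genes these medians were -0.02 and 0.01. Against PBS library A alone, the median with ketotifen was 0.08 for the short genes and -0.01 for the longer ones. The lengths of MT2A, MT3 and MT1X were 401, 406 and 404 bases. The part of gene length in the differences of the metallothioneins was not tested.

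The promoters of MT2A and MT1X, with that of SLC30A1, are shown because MTF1 acts on these genes through metal response elements. Each run is the 250 bases before the RefSeq start (GRCh38.p14), read 5′ to 3′ on the gene's strand. Capitals mark matches to the element cores TGCACNC or TGCGCNC on either strand; no matches overlapped in these windows. The windows are chr16:56682220-56682469 (plus strand) for MT1X, chr16:56608334-56608583 (plus strand) for MT2A and chr1:211579162-211579411 (minus strand) for SLC30A1.
MT1X: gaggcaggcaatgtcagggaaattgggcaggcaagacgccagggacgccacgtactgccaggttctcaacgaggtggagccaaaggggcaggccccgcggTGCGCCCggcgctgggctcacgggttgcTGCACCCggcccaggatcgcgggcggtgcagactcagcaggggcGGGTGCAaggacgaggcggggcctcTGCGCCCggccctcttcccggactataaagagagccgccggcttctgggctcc
MT2A: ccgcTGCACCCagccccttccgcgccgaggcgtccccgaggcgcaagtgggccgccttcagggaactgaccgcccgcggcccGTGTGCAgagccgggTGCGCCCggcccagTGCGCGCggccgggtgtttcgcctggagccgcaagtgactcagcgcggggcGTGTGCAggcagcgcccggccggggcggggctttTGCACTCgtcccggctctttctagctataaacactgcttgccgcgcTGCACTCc
SLC30A1: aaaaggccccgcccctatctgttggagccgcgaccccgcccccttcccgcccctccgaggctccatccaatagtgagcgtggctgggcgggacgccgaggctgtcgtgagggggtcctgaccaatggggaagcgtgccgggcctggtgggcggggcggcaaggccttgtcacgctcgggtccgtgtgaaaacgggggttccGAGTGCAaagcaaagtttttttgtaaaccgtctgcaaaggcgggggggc
MT1X held 4 matches, MT2A 7 and SLC30A1 1. Of 35116 promoter windows of this length, 24.8% held at least 1 match and 0.370% held at least 4. Among the 32 windows of the genes described here, 12 held at least 1. The log2 differences were 0.29 for MT1X, -0.08 for MT2A and -0.11 for SLC30A1. A relation between matches and differences was not tested. Promoters of 23 of the 28 genes were in the table; MT1E, MT1F, MT3, SLC39A4 and SLC39A14 were not matched.

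MTF1 itself had 3.39 and 3.13 FPKM in the ketotifen libraries, against 3.86 and 3.59 FPKM in the PBS libraries. Both ketotifen libraries lay below both PBS libraries. The log2 difference was -0.15 ± 0.08 (SE), with a 95% interval of -0.33 to 0.04 (limma adjusted p = 0.330). SLC30A1, which encodes ZnT1, the plasma membrane exporter that MTF1 induces with the metallothioneins, had 4.71 and 5.02 FPKM in the ketotifen libraries, against 5.09 and 5.58 FPKM in the PBS libraries. Here too the ketotifen libraries lay below, by a log2 difference of -0.11 ± 0.08 (SE, limma adjusted p = 0.439). The signs of MTF1, SLC30A1 and MT2A were negative and those of MT3, MT1X and MT1F positive.

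After adjustment few of the zinc genes passed a threshold. None of the 24 tested members was called by limma, where 0.123% of all tested genes were called, and voom called MT3 alone, where it called 7.53% of all. At an unadjusted p under 0.05 there were 8 members in limma, against 20.4% of all tested genes. Of these, 7 had higher means with ketotifen (MT3, MT1X, MT1F, SLC30A5, SLC39A7, SLC39A14 and SLC39A1), against 10.0% of all tested genes, and SLC30A3 a lower one, against 10.3%. Both ketotifen libraries lay above both PBS libraries in 7 tested members and below them in 6, against 23.2% and 31.2% of all tested genes. The median log2 difference of the tested members was 0.02 and that of all tested genes -0.02. The other 4 rows, MT1E, SLC39A2, SLC39A5 and SLC39A12, were below the filter.

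**Figure D2:**
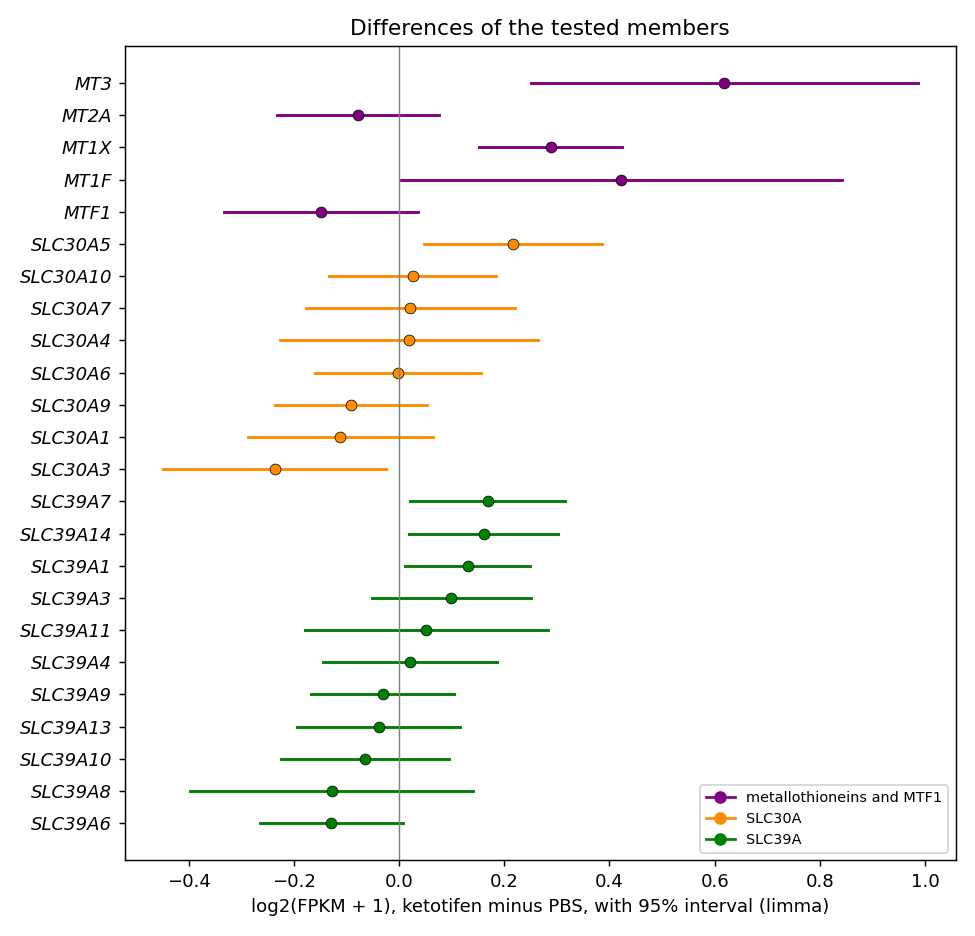
Difference of log2(FPKM + 1), ketotifen minus PBS, of the 24 tested members (points) with limma's 95% intervals (lines), grouped into metallothioneins with MTF1, SLC30A and SLC39A. MT3 at 0.62 lies farthest from 0, and most transporter intervals include 0.

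Among the SLC30A genes, SLC30A5 was the most abundant and had the smallest p. It encodes ZnT5, which carries zinc into the early secretory pathway and works there as a heterodimer with ZnT6. SLC30A5 had 15.0 and 16.1 FPKM in the ketotifen libraries, against 14.0 and 12.5 FPKM in the PBS libraries. The groups did not overlap. Its log2 difference was 0.22 ± 0.07 (SE), 1.16-fold on the log2(FPKM + 1) scale, and missed the threshold (limma adjusted p = 0.175; voom adjusted p = 0.0554). It passed without PBS library A (0.29 ± 0.08, limma adjusted p = 0.00717) and was smaller without PBS library B (0.14 ± 0.07, adjusted p = 0.364). SLC30A6, the gene of its partner ZnT6, had 6.52 and 6.68 FPKM with ketotifen and 6.41 and 6.81 FPKM with PBS. These groups overlapped, with a log2 difference of 0.00 (95% interval -0.16 to 0.16). SLC30A7, which encodes ZnT7 of the Golgi, had means of 2.19 ± 0.0717 FPKM with ketotifen and 2.14 ± 0.167 FPKM with PBS (SD, n = 2 each).

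SLC30A3 encodes ZnT3, which loads zinc into synaptic vesicles of neurons. It had 0.837 and 0.918 FPKM in the ketotifen libraries, against 1.24 and 1.19 FPKM in the PBS libraries. The ketotifen libraries were lower, with 111 and 112 reads against 147 and 149 reads. Its log2 difference was -0.24 ± 0.09 (SE) on the log2(FPKM + 1) scale and -0.47 ± 0.22 in voom, which adds no such offset; neither passed (limma adjusted p = 0.211, voom adjusted p = 0.205). SLC30A9, which encodes the mitochondrial carrier ZnT9, had 12.0 and 11.2 FPKM with ketotifen and 12.5 and 12.4 FPKM with PBS. The ketotifen libraries were again below, by a log2 difference of -0.09 ± 0.06 (SE, limma adjusted p = 0.437). SLC30A10, a manganese exporter, had 5.95 and 5.66 FPKM with ketotifen and 5.71 and 5.66 FPKM with PBS, with overlapping groups. SLC30A4, which encodes ZnT4 of endosomal vesicles, had means of 1.61 ± 0.146 FPKM with ketotifen and 1.58 ± 0.290 FPKM with PBS (SD, n = 2 each). Summed, the 8 SLC30A genes came to 49.0 and 49.2 FPKM in the ketotifen libraries, against 48.8 and 47.7 FPKM in the PBS libraries.

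**Figure D3:**
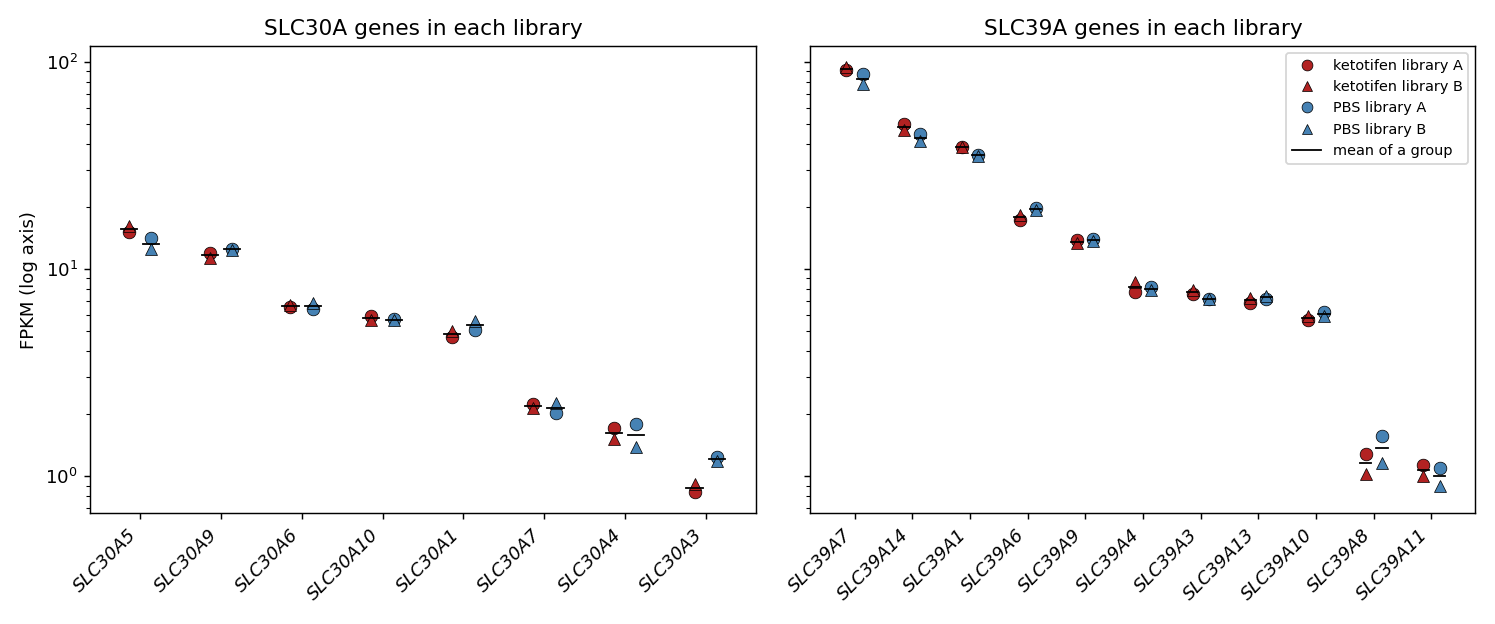
FPKM (log axis) of the tested SLC30A genes (left) and SLC39A genes (right) in each library, ordered by mean level; points are libraries, with ketotifen left of PBS, and bars are group means (n = 2 each). SLC39A7 is the most abundant transporter, at 91.2 and 94.1 FPKM with ketotifen and 87.0 and 77.9 FPKM with PBS.

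The summed level of the SLC39A genes was higher than that of the SLC30A genes. Over 14 rows, SLC39A genes came to 241 and 243 FPKM in the ketotifen libraries, against 232 and 218 FPKM in the PBS libraries. SLC39A7, SLC39A14 and SLC39A1 held the upper ranks. In each of them both ketotifen libraries lay above both PBS libraries, as in 23.2% of all tested genes, and neither limma nor voom called them. SLC39A7 encodes ZIP7, which releases zinc from the endoplasmic reticulum. It had 91.2 and 94.1 FPKM in the ketotifen libraries, against 87.0 and 77.9 FPKM in the PBS libraries. PBS library B was the lowest. The log2 difference of SLC39A7 was 0.17 ± 0.06 (SE), with limma adjusted p = 0.206 and voom adjusted p = 0.0819, and 0.25 ± 0.05 without PBS library A (limma adjusted p = 0.00207). Without PBS library B it was 0.09 ± 0.05 (adjusted p = 0.436).

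SLC39A14 encodes ZIP14, which takes up zinc, manganese and iron. It had 49.8 and 46.6 FPKM in the ketotifen libraries, against 44.6 and 41.4 FPKM in the PBS libraries. Its log2 difference was 0.16 ± 0.06 (SE), 1.12-fold on the log2(FPKM + 1) scale, and missed the threshold (limma adjusted p = 0.206; voom adjusted p = 0.0644). It passed without PBS library A (0.21 ± 0.06, limma adjusted p = 0.017), and was 0.11 without PBS library B (adjusted p = 0.387) and 0.11 without ketotifen library A (adjusted p = 0.679). SLC39A1 encodes ZIP1, the uptake carrier linked to zinc accumulation in normal prostate. It had 38.8 and 38.9 FPKM in the ketotifen libraries, against 35.6 and 35.2 FPKM in the PBS libraries. The libraries of each group were nearly equal, and the log2 difference was 0.13 ± 0.05 (SE, limma adjusted p = 0.214; voom adjusted p = 0.16).

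SLC39A6 encodes ZIP6, also called LIV-1, first known as an estrogen-regulated gene of breast cancer cells. It had 17.2 and 18.2 FPKM in the ketotifen libraries, against 19.6 and 19.3 FPKM in the PBS libraries. The ketotifen libraries were lower by a log2 difference of -0.13 ± 0.06 (SE, limma adjusted p = 0.261; voom adjusted p = 0.184). SLC39A10, whose protein ZIP10 pairs with ZIP6 at the plasma membrane, had 5.66 and 5.89 FPKM with ketotifen and 6.22 and 5.96 FPKM with PBS. It too lay below in both ketotifen libraries, by -0.06 ± 0.07 (SE, limma adjusted p = 0.624). SLC39A3, a plasma membrane importer gene, had 7.54 and 7.88 FPKM with ketotifen and 7.12 and 7.14 FPKM with PBS, a log2 difference of 0.10 ± 0.07 (SE, limma adjusted p = 0.424).

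In 3 more SLC39A genes averaging 5 FPKM or more the groups overlapped. SLC39A9, which encodes ZIP9 of the Golgi, had 13.7 and 13.3 FPKM with ketotifen and 13.9 and 13.7 FPKM with PBS. SLC39A4, the intestinal zinc importer gene mutated in acrodermatitis enteropathica, had 7.76 and 8.60 FPKM with ketotifen and 8.16 and 7.92 FPKM with PBS. SLC39A13, which encodes ZIP13 of the early secretory pathway, had 6.88 and 7.26 FPKM with ketotifen and 7.19 and 7.39 FPKM with PBS. Their log2 differences were -0.03 for SLC39A9, 0.02 for SLC39A4 and -0.04 for SLC39A13, and limma's 95% intervals reached no farther than -0.19 and 0.19. Lower still were SLC39A8, whose protein ZIP8 takes up zinc and manganese, with means of 1.16 ± 0.182 FPKM with ketotifen and 1.36 ± 0.291 FPKM with PBS, and SLC39A11, with 1.07 ± 0.0928 FPKM and 0.997 ± 0.143 FPKM (SD, n = 2 each). SLC39A2 and SLC39A5 did not exceed 9 reads in any library, and SLC39A12 was listed at 0 in 3 of the 4 libraries.

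Genes that handle copper and iron were examined beside the zinc genes, since metallothioneins and MTF1 are tied to several metals. Of 12 copper handling genes tested, limma called none, with 3 at an unadjusted p under 0.05, against 20.4% of all tested genes. Their median log2 difference was 0.05. Voom called 1, SCO2, higher, where it called 7.53% of all tested genes in either direction. SCO2, a copper chaperone of cytochrome c oxidase, had 31.3 and 30.2 FPKM in the ketotifen libraries, against 25.6 and 25.4 FPKM in the PBS libraries (log2 difference 0.26 ± 0.05 SE, limma adjusted p = 0.1003, voom adjusted p = 0.0465). CCS, the copper chaperone of superoxide dismutase, had 21.2 and 20.3 FPKM with ketotifen and 17.2 and 16.2 FPKM with PBS (limma adjusted p = 0.1003, voom adjusted p = 0.0766). ATOX1, the chaperone that delivers copper to the ATPases of the secretory pathway, had 68.0 and 70.5 FPKM with ketotifen and 59.4 and 53.4 FPKM with PBS (limma adjusted p = 0.102, voom adjusted p = 0.0513). In each of these 3 genes, those with the smallest p of the list, both ketotifen libraries lay above both PBS libraries. A choice by small p favours groups that do not overlap, so this adds nothing to the p-values. Over all tested genes 23.2% lay above in this way.

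Of 12 iron handling genes 11 were tested. Limma called none, with 2 at an unadjusted p under 0.05 (20.4% of all tested genes) and a median of -0.01. Voom called 1, FTH1, lower, where it called 7.53% of all tested genes in either direction. FTH1, the ferritin heavy chain, had 479.7 and 501 FPKM in the ketotifen libraries, against 537 and 565 FPKM in the PBS libraries (log2 difference -0.17 ± 0.06 SE, limma adjusted p = 0.173, voom adjusted p = 0.0368). TFRC, the transferrin receptor, had 38.7 and 36.1 FPKM with ketotifen and 33.8 and 33.3 FPKM with PBS, a log2 difference of 0.15 (limma adjusted p = 0.203, voom adjusted p = 0.102). SLC25A37, which encodes the mitochondrial iron importer mitoferrin-1, followed with -0.10 (limma adjusted p = 0.368).

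Of 12 other zinc and MTF1-linked genes in the deposited table, 8 were tested. Limma called none, with 1 at an unadjusted p under 0.05 (20.4% of all tested genes) and a median of -0.02. Voom called 1, SELENOH, higher, where it called 7.53% of all tested genes in either direction. SELENOH, a selenoprotein gene, had 54.3 and 58.3 FPKM in the ketotifen libraries, against 48.2 and 42.3 FPKM in the PBS libraries (log2 difference 0.31 ± 0.07 SE, limma adjusted p = 0.107, voom adjusted p = 0.0153). The next were TMC6 (0.13) and CBWD1, an older symbol of a zinc chaperone gene (-0.08).

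**Figure D4:**
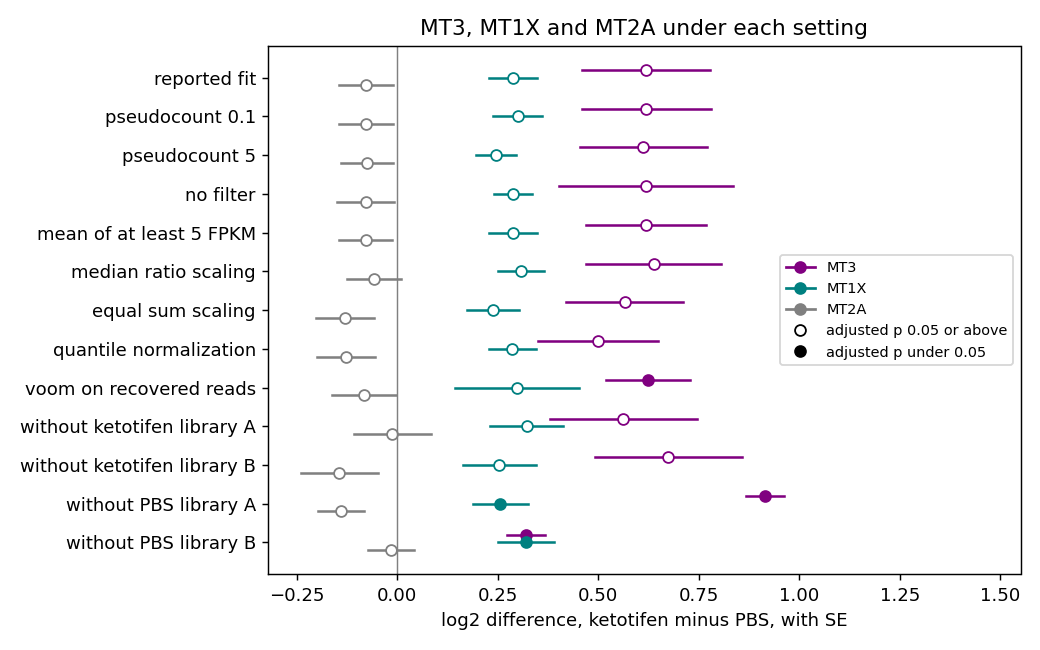
Log2 difference, ketotifen minus PBS, with SE, of MT3, MT1X and MT2A in the reported fit and under each of 12 alternatives; filled points had an adjusted p under 0.05. MT3 runs from 0.32 without PBS library B to 0.92 without PBS library A, MT1X stays between 0.24 and 0.32, and MT2A is negative throughout.

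MT3 and MT1X were positive, and MT2A negative, under each of the 12 alternatives in the plot of these genes by setting. MT3 ran from 0.32 to 0.92 and MT1X from 0.24 to 0.32. MT2A ran from -0.14 to -0.01 and passed the threshold in none of these fits.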

How the data were processed

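RNA of 4 LASCPC-01 libraries (2 ketotifen, 2 PBS, day 3) was measured by paired-end sequencing of stranded mRNA libraries, per the labels' protocols. Per the submitters' processing notes, fastp, HISAT2 and HTSeq were used with GRCh38; their versions, the annotation and the strand setting are not stated. The deposited table holds FPKM values as the authors made them, that is, fragments divided by gene length and by a library total. Its columns carry the letters A and B, which were not matched to the labels' replicate numbers. Nothing says whether libraries came from separate cultures, so p-values reflect the spread of these libraries only, and that spread may be technical. Limma and voom also draw the variance of each gene toward that of the other genes. For MT3, whose PBS libraries stood far apart, the SE and interval are therefore narrower than its own libraries alone would give.

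As FPKM are not counts, log2(FPKM + 1) was fitted with limma 3.58.1 under R 4.3.3, two-sided and with its intensity trend, over the 10586 genes averaging 1 FPKM or more, with Benjamini-Hochberg adjustment over all of them and a threshold of 0.05. Differences are ketotifen minus PBS and understate changes of low genes. Whole reads were recovered from the FPKM steps (Python 3.11.15) for 100% of tested genes. The totals and gene lengths came out whole, and 0 of 300 decoy genes did; a value counted as whole within its printing error, at most 0.05 reads. The 4 totals were 36703851 and 33767082 reads with ketotifen and 32873603 and 34756748 with PBS, and the median was 1524 reads per library and tested gene. Limma's voom was run on these reads as an alternative. Fits were tested on simulated data. In 5 simulated tables like the deposited one, 100% of 1500 genes each were recovered up to a common factor. The method needs low genes: in small simulated tables with few of them it was right in 2 of 5, the starting depth ratio being off by a simple fraction in the rest. Such an error would make reads multiples of a number. In the deposited table, the share of tested genes with reads divisible by a prime up to 13 lay within 1.82 percentage points of an even share. A factor shared by a gene's reads and its length cannot be seen, so some genes' reads may be understated.

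All members were to be named: metallothioneins and MTF1 in every library, transporters past a threshold, at an unadjusted p under 0.05 or averaging 5 FPKM or more likewise, the rest by means or ranges, and the 3 genes with the smallest p of each companion list (copper, iron, other zinc-linked genes and neighbours of the cluster). Cell type markers served as a check of the label. Members and lists were chosen with earlier results of these data known. Promoters and positions are RefSeq's (GRCh38.p14); transcripts are GENCODE 29.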

Additional observations from a re-analysis of the deposited data

How the results depend on the processing

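Over all tested genes 13 were called (1 higher, 12 lower). The number was 0 with no filter (2295 at an unadjusted p under 0.05), 27 with a mean of at least 5 FPKM, 3 under median ratio scaling, 3 under quantile normalization and 797 with voom on recovered reads. Leaving out 1 library gave 10 to 1936 calls: 28 without ketotifen library A, 10 without ketotifen library B, 1936 when PBS library A and 421 when PBS library B was left out. Among the zinc genes the count was 0 in the reported fit, 1 with voom (MT3) and 0 to 6 without 1 library: 6 higher without PBS library A (MT3, MT1X, MT1F, SLC30A5, SLC39A7 and SLC39A14), 2 higher without PBS library B (MT3 and MT1X), and 0 without either ketotifen library. The cause was not tested.

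Signs turned only in transporters with log2 differences near 0. SLC30A6 (0.00 in the reported fit) was at 0.016 under median ratio scaling and 0.030 under quantile normalization. Scaling all libraries to the same sum moved the median of all genes to -0.063 and left SLC30A10 at -0.018, SLC30A4 at -0.013, SLC30A7 at -0.015 and SLC39A4 at -0.025. Over the fits that left out 1 library, SLC30A10 ran from -0.0039 to 0.056, SLC30A4 from -0.096 to 0.13, SLC30A6 from -0.040 to 0.036, SLC30A7 from -0.033 to 0.076, SLC39A4 from -0.045 to 0.088 and SLC39A11 from -0.021 to 0.12.

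The columns carry the letters A and B, not the replicate numbers of the labels, and nothing says that the letters mark pairs. Over the tested genes, the differences between libraries A and B correlated at 0.10 between the groups. A replicate block by column letter, chosen after seeing the data, with 1 residual degree of freedom, gave 637 calls over all tested genes and 3 among the zinc genes: MT3 (adjusted p = 0.00601), MT1X (0.0194) and MT1F (0.0354), all higher with ketotifen. MT1E, SLC39A2, SLC39A5 and SLC39A12 are limited by their read numbers.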
